A study of Mus musculus with 15 samples.

Results

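The vesicular glutamate transporters of mammals are encoded by 3 genes: Slc17a6 (VGLUT2), Slc17a7 (VGLUT1) and Slc17a8 (VGLUT3). They were taken by symbol from a table of 26595 genes measured in the striatum and the cerebral cortex of mice, and all 3 passed the filter on low values. A vesicular glutamate transporter sits in the membrane of the synaptic vesicle and uses the gradient set up by the vesicle's proton pump to fill it with glutamate. In the rodent brain Slc17a7 is known as the transporter of cortical and hippocampal excitatory neurons, and Slc17a6 as that of thalamic, hypothalamic and brainstem neurons. Slc17a8 is known from scattered cells that also release another transmitter, such as cholinergic interneurons of the striatum, some interneurons that make cholecystokinin, and serotonin neurons. Neurons of the striatum itself are mostly GABAergic, so the striatum receives its glutamatergic endings from cell bodies in cortex and thalamus.

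The study sequenced 15 libraries from male C57Bl/6 mice aged 5 months. There were 3 libraries of KO striatum, 4 of WT striatum, 4 of KO cortex and 4 of WT cortex. KO animals carry the genotype Slc1a4 -/-, that is, they lack the neutral amino acid transporter ASCT1, and the labels give neither the construct of the allele nor any treatment. The sum of reads over genes was 22990233 to 25697792 for a striatum library and 26791109 to 30276815 for a cortex library, and values are normalized counts, that is, reads divided by 1 factor per library. Whether each replicate is its own animal is not stated, so a p-value here weighs only how these samples spread, which may be technical.

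The labels held for genotype and tissue. Slc1a4 had 158 to 344 normalized counts in KO striatum against 1237 to 1726 in WT striatum, and 249 to 308 in KO cortex against 1494 to 1797 in WT cortex. The summed level of 14 markers of striatal projection neurons, such as the dopamine receptor genes Drd1 and Drd2, was 68506 to 151700 in KO striatum, 133224 to 285555 in WT striatum, 24406 to 30033 in KO cortex and 25758 to 41528 in WT cortex. The striatum libraries also held transcripts of neighbouring regions. KO striatum replicate 4 and WT striatum replicate 8 had summed levels of 14 thalamic markers of 51551 and 32064, against 6566 to 13797 in the other 5 striatum libraries. KO striatum replicate 4 and WT striatum replicate 5 had 90871 and 148353 counts of 10 choroid plexus markers, against 1558 to 6563 in the other 5. Values of the 3 transporters between KO and WT striatum are given with and without KO replicate 4 and WT replicate 8.

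Slc17a6 (ENSMUSG00000030500) lies on the plus strand at chr7:51622006-51671119 and Slc17a7 (ENSMUSG00000070570) on the plus strand at chr7:45163949-45176142, in GRCm38 by GENCODE M21. Slc17a8 (ENSMUSG00000019935) lies on the minus strand at chr10:89574020-89621253. Exons cover 5.4 kb in Slc17a6, 5.39 kb in Slc17a7 and 4.72 kb in Slc17a8. No gene overlaps a member on the opposite strand. The microRNA gene Mir7055 lies inside Slc17a7 on the same strand, shares no exon with it, and averaged 0.316 normalized counts.

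The 3 genes are used by different neurons, so the 250 bases before a start of each are shown for comparison, on the strand of the gene, from RefSeq on GRCm38.p6. The RefSeq table holds 2 starts each for Slc17a6 and Slc17a8 and 1 for Slc17a7, and the most upstream start was taken, so the motif counts hold for that start alone. Capitals mark E-boxes (CANNTG), the letters bound by basic helix-loop-helix factors such as Neurod2.
Slc17a6, chr7:51621580-51621829, plus strand: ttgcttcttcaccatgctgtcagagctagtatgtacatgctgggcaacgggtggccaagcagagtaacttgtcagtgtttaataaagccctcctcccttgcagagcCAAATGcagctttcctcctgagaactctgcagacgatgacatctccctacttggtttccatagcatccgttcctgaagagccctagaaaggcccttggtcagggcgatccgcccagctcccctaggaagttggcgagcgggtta
Slc17a7, chr7:45163671-45163920, plus strand: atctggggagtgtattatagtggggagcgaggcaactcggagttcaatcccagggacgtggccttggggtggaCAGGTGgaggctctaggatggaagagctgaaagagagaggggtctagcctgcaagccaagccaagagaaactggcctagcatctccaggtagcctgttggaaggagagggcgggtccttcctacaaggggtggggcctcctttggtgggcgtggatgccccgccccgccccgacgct
Slc17a8, chr10:89621250-89621499, minus strand: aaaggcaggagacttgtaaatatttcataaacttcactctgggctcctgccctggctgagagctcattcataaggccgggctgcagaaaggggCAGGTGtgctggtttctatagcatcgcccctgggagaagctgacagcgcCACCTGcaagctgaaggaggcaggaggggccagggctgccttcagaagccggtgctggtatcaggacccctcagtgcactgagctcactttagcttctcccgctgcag
Searched on both strands, the window of Slc17a6 held 1 E-box, that of Slc17a7 held 1 and that of Slc17a8 held 2, and 66.2% of the 32851 windows of this length in the RefSeq table hold at least 1. The GC box GGGCGG was found 1 time for Slc17a6, 3 times for Slc17a7 and not for Slc17a8, against 32.7% of all windows with a match. The TATA box (TATAAA) was found in none of the 3 windows, while 12.4% of all windows hold it. The CCAAT box was likewise in none, against 33.8% of all windows. Nor was the cAMP response element (TGACGTCA), which 1.55% of all windows hold. GC content was 53.2% for Slc17a6, 61.2% for Slc17a7 and 57.2% for Slc17a8, beside a median of 52.4%. These are matches of letters and say nothing of what binds there.

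All 3 genes differed between the tissues in both genotypes. Slc17a7 was the lower one in striatum, while Slc17a6 and Slc17a8 were higher there. A gene was called where limma gave an adjusted p (Benjamini-Hochberg, over the 17030 genes tested) below 0.05. In KO samples 18.4% of all tested genes were called higher in striatum and 19.5% lower. In WT samples these shares were 24.9% and 25.7%, so a call between tissues is common in this table. Where groups are said below not to overlap, the share of all tested genes with such a separation was not counted.

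Slc17a7, the cortical transporter, had 8072, 3690 and 7651 normalized counts in KO striatum (replicates 2, 3 and 4) and 1275, 1308, 2379 and 3705 in WT striatum (replicates 5 to 8). It had 33561, 38962, 32269 and 31947 in KO cortex (replicates 1 to 4) and 33759, 38849, 32226 and 32868 in WT cortex (replicates 5 to 8). Every striatum library lay below every cortex library. Striatum was 5.58-fold lower than cortex in KO samples (log2 fold change -2.48, SE 0.32, limma adjusted p = 3.9e-05) and 17.5-fold lower in WT samples (-4.13, SE 0.30, adjusted p = 6.7e-08). In bulk tissue such as this, fewer cells of a type and less RNA per cell cannot be told apart.

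Slc17a6, the thalamic and hypothalamic transporter, had 1650, 2725 and 7890 normalized counts in KO striatum and 1463, 2789, 1917 and 4921 in WT striatum. It had 687, 1034, 852 and 891 in KO cortex and 793, 813, 856 and 731 in WT cortex. All 7 striatum libraries lay above all 8 cortex libraries, and the highest in each genotype were KO replicate 4 and WT replicate 8. Striatum was 3.83-fold higher in KO samples (log2 fold change 1.94, SE 0.43, limma adjusted p = 0.0026) and 3.12-fold higher in WT samples (1.64, SE 0.40, adjusted p = 0.0032). The log2 difference was 1.31 in KO samples without KO striatum replicate 4 and 1.32 in WT samples without WT striatum replicate 8, and both stayed called.

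Slc17a8, the transporter of cells with a second transmitter, had the lowest level per kilobase of the 3 in every library. It had 285, 382 and 183 normalized counts in KO striatum and 548, 425, 404 and 288 in WT striatum. It had 105, 109, 115 and 110 in KO cortex and 137, 109, 85.1 and 133 in WT cortex. All striatum libraries lay above all cortex libraries, with KO striatum replicate 4 the lowest of the striatum. Striatum was 2.46-fold higher in KO samples (log2 fold change 1.3, SE 0.24, limma adjusted p = 0.00069) and 3.53-fold higher in WT samples (1.82, SE 0.22, adjusted p = 1.1e-05).

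**Figure D1:**
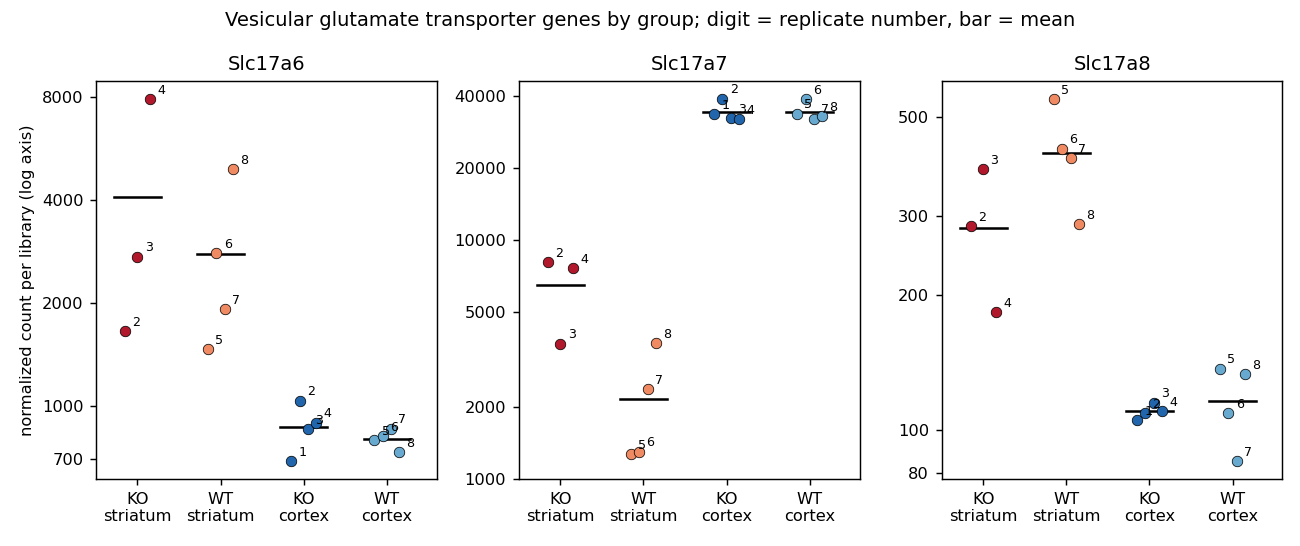
Normalized counts of Slc17a6, Slc17a7 and Slc17a8 (log axis, 1 panel per gene) in KO striatum, WT striatum, KO cortex and WT cortex. Each point is a library, the digit its replicate number, and the bar the group mean. Slc17a7 lies between 31947 and 38962 in every cortex library and at or below 8072 in striatum, while striatum lies above cortex for the other genes.

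The order of the 4 groups by mean differed between the genes. Slc17a7 averaged 6471 ± 2418 in KO striatum (SD, n = 3), 2167 ± 1147 in WT striatum, 34185 ± 3260 in KO cortex and 34425 ± 3015 in WT cortex (SD, n = 4 each). Slc17a6 averaged 4088 ± 3336 in KO striatum, 2772 ± 1534 in WT striatum, 866 ± 143 in KO cortex and 798 ± 51.9 in WT cortex. Slc17a8 averaged 283 ± 99.3 in KO striatum, 416 ± 106 in WT striatum, 110 ± 3.98 in KO cortex and 116 ± 24.3 in WT cortex. For each gene the KO and WT groups of one tissue were neighbours in the order, and limma called none of these neighbours different. The spread within a group was widest for Slc17a6 in striatum, where the SD was 81.6% of the mean in KO and 55.3% in WT, against 16.5% in KO cortex and 6.5% in WT cortex. For Slc17a7 the SD was 37.4% of the mean in KO striatum and 52.9% in WT striatum, against 9.54% in KO cortex and 8.76% in WT cortex. For Slc17a8 these values were 35.1% and 25.6% in striatum, and 3.63% and 20.9% in cortex.

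Per kilobase of exon, the 3 genes can be set against each other. Of their summed level, Slc17a6 held 16.4, 39.7 and 50.1% in the KO striatum libraries and 43.4, 60.8, 40.3 and 54.9% in the WT striatum libraries. Slc17a7 held 80.4, 53.9 and 48.6% in KO striatum and 37.9, 28.6, 50 and 41.4% in WT striatum. Slc17a8 held 3.24, 6.37 and 1.33% in KO striatum and 18.6, 10.6, 9.70 and 3.68% in WT striatum. The shares varied widely within each genotype, the KO and WT ranges overlapped for each gene, and no test of the shares was made.

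In cortex the composition hardly varied. Slc17a7 held 96.9 to 97.7% of the per-kilobase level in KO cortex and 97.1 to 97.6% in WT cortex. Slc17a6 held 2.0 to 2.7% in KO cortex and 2.04 to 2.58% in WT cortex, and Slc17a8 stayed under 0.5% in every library. The ratio of Slc17a6 to Slc17a7 per kilobase was 0.204, 0.738 and 1.03 in KO striatum, 1.15, 2.13, 0.805 and 1.33 in WT striatum, and 0.0204 to 0.0279 in cortex. Slc17a6 therefore exceeded Slc17a7 per kilobase in KO striatum replicate 4 and in WT striatum replicates 5, 6 and 8, and in no other library.

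**Figure D2:**
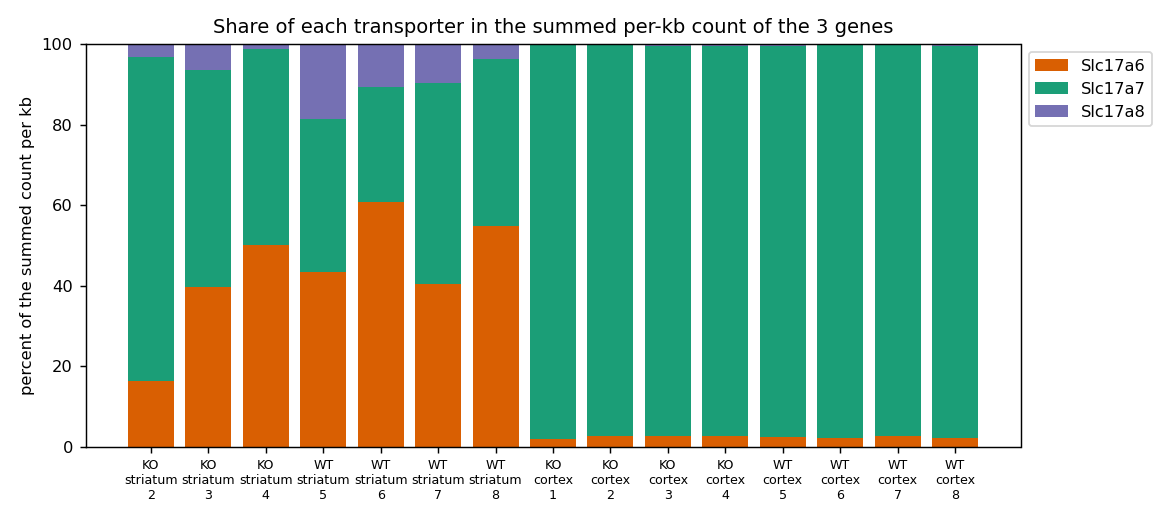
Share of each vesicular glutamate transporter gene in the summed per-kilobase level of the 3 (percent, y axis), in each of the 15 libraries ordered by group. Slc17a7 holds 96.9 to 97.7% in all cortex libraries, while in striatum its share runs between 28.6 and 80.4%.

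The deletion of Slc1a4 went with no called change of a vesicular glutamate transporter in cortex. Limma called 0 of the 3 genes, 0 had an unadjusted p below 0.05, and edgeR and DESeq2 on the recovered reads called 0 each, beside 0.00587% of all tested genes called. The log2 fold change, KO over WT, was -0.01 for Slc17a7 (SE 0.30, 95% interval -0.64 to 0.62), 0.10 for Slc17a6 (SE 0.40, -0.74 to 0.95) and -0.06 for Slc17a8 (SE 0.22, -0.53 to 0.41). This fit shares 1 spread per gene over both tissues. Limma fitted to the cortex libraries alone had a smaller SE, 0.08 for Slc17a7, 0.11 for Slc17a6 and 0.15 for Slc17a8, and called none of them. The values of KO and WT cortex given above overlapped for each gene. The exact two-sided permutation test over libraries gave p = 0.77 for Slc17a7, 0.46 for Slc17a6 and 0.89 for Slc17a8, where the smallest value it can give is 0.029.

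In striatum the means of Slc17a7 were 6471 in KO against 2167 in WT, which did not pass the test at a fitted 3.12-fold (log2 fold change 1.64, SE 0.32, 95% interval 0.96 to 2.32, limma unadjusted p = 0.00013, adjusted p = 0.09). By this p it was the gene of rank 25 among the 17030, of which 0.0763% were called. WT replicate 8, at 3705, lay just above KO replicate 3, at 3690, and this pair was the only overlap. The exact two-sided permutation test gave p = 0.086. The call depended on the setting: DESeq2 gave 1.58 with an adjusted p of 0.0034, edgeR 1.58 with 0.096, and limma fitted to the striatum libraries alone 1.64 with 0.68. Without KO replicate 4 and WT replicate 8 together, limma called it at 1.78 (adjusted p = 0.0087), in a fit that called 5.11% of all tested genes. With a single library missing, limma called it without KO replicate 3 (2.0, adjusted p = 0.023), KO replicate 4 (1.48, adjusted p = 0.041) or WT replicate 8 (1.95, adjusted p = 0.0088).

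The other members were not called in striatum. Slc17a6 had a log2 fold change of 0.40, KO over WT (SE 0.43, 95% interval -0.51 to 1.31, limma adjusted p = 0.69), and its groups overlapped. Without KO replicate 4 the value was -0.23, and without KO replicate 4 and WT replicate 8 it was 0.10 (adjusted p = 0.84). Slc17a8 had -0.58 (SE 0.24, -1.09 to -0.07, unadjusted p = 0.028, adjusted p = 0.28), and WT replicate 8 lay inside the KO range. Limma fitted to the striatum libraries alone gave -0.58 for Slc17a8 with an SE of 0.28 (unadjusted p = 0.072, adjusted p = 0.68). The value of Slc17a8 was -0.46 without KO replicate 4 and WT replicate 8 (adjusted p = 0.17), and leaving out 1 library moved it between -0.83 (without KO replicate 3) and -0.30 (without KO replicate 4), with no call. The exact two-sided permutation p was 0.60 for Slc17a6 and 0.14 for Slc17a8. Of the 3 members limma called 0 and edgeR 0, while DESeq2 called Slc17a7, among 320 genes over the whole table. An unadjusted p below 0.05 was found for 2 members, beside 2598 of the 17030 tested genes.

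The KO effect in striatum minus that in cortex was tested as such. It was 1.65 for Slc17a7 (SE 0.44, 95% interval 0.72 to 2.58, limma unadjusted p = 0.0019, adjusted p = 0.96), 0.29 for Slc17a6 (SE 0.58, adjusted p = 0.99) and -0.52 for Slc17a8 (SE 0.33, adjusted p = 0.96). Without KO striatum replicate 4 and WT striatum replicate 8 it was 1.8 for Slc17a7 (limma unadjusted p = 0.00021, adjusted p = 0.082). In that fit it was -0.01 for Slc17a6 and -0.40 for Slc17a8. Without KO striatum replicate 4 alone it was 1.49 for Slc17a7 (adjusted p = 0.26), -0.34 for Slc17a6 and -0.24 for Slc17a8. With all libraries limma called 0 of the 3, as did edgeR and DESeq2, beside 0.00587% of all tested genes called by limma. Of the 3, 1 had an unadjusted p below 0.05, beside 834 of the 17030 tested genes. So the KO effect was not shown to differ between the tissues for any member.

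**Figure D3:**
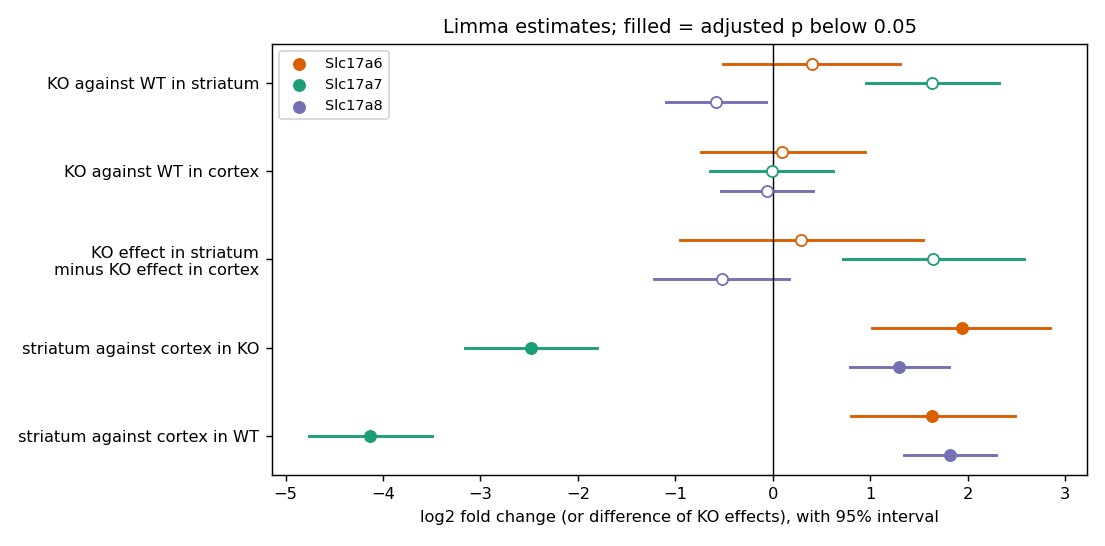
Log2 fold changes of the 3 genes with 95% intervals from limma, for each comparison. Intervals for striatum against cortex lie on 1 side of 0 for every gene in both genotypes, and those for KO against WT in cortex cross 0.

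Markers of cortical excitatory neurons moved with Slc17a7. Of 16 markers tested, limma called 14 lower and 1 higher in striatum in KO samples (median log2 fold change -2.14, against 0.00241 over all tested genes) and likewise 14 and 1 in WT samples (median -3.16, against 0.00582). The higher one was Foxp2, which striatal projection neurons also express. Tbr1, a transcription factor of deep-layer cortical neurons, averaged 535 ± 217 normalized counts in KO striatum, 214 ± 99.3 in WT striatum, 4464 ± 418 in KO cortex and 4537 ± 268 in WT cortex (SD, n = 3 for KO striatum and 4 for each other group).

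Between KO and WT striatum 12 of these 16 markers lay above 0, with a median of 0.81, and limma called 1 of them, Neurod2. This transcription factor of cortical excitatory neurons had 420, 137 and 369 normalized counts in KO striatum against 33.0, 36.6, 107 and 73.1 in WT striatum (log2 fold change 2.30, SE 0.38, limma adjusted p = 0.03). The groups did not overlap. The call of Neurod2 was lost in 14 of 27 alternatives, among them limma fitted to the striatum libraries alone (2.30, adjusted p = 0.68), limma voom (2.30, adjusted p = 0.12) and 11 of the 15 with a single library missing: any of the 8 cortex libraries (adjusted p 0.055 to 0.064), KO striatum replicate 2 (adjusted p = 0.12), WT striatum replicate 5 (0.058) or WT striatum replicate 6 (0.10). Its log2 fold change stayed between 1.92 and 2.81 in all 27. Unadjusted p was below 0.05 for 9 of the 16, beside 2598 of the 17030 tested genes. DESeq2 called 6 of the 16, among them Emx1, Slc30a3 and Tbr1, and 320 genes over the whole table. Without KO striatum replicate 4 and WT striatum replicate 8, limma called 8 of the 16, all higher in KO, in a fit that called 5.11% of all tested genes. That alternative was chosen for the lists after the data had been seen.

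Set against the mean of cortex of the same genotype, Slc17a7 reached 23.6, 10.8 and 22.4% in the KO striatum libraries and 3.70, 3.80, 6.91 and 10.8% in the WT striatum libraries. The median of the 16 markers was 23.7, 15.9 and 25.4% in KO striatum and 9.15, 11, 10.7 and 18.4% in WT striatum. The KO library with the lowest Slc17a7, replicate 3, also had the lowest marker median of its group, and WT replicate 8 had the highest of each in its group. The part of cortical transcripts in the difference of Slc17a7 between KO and WT striatum was not tested.

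**Figure D4:**
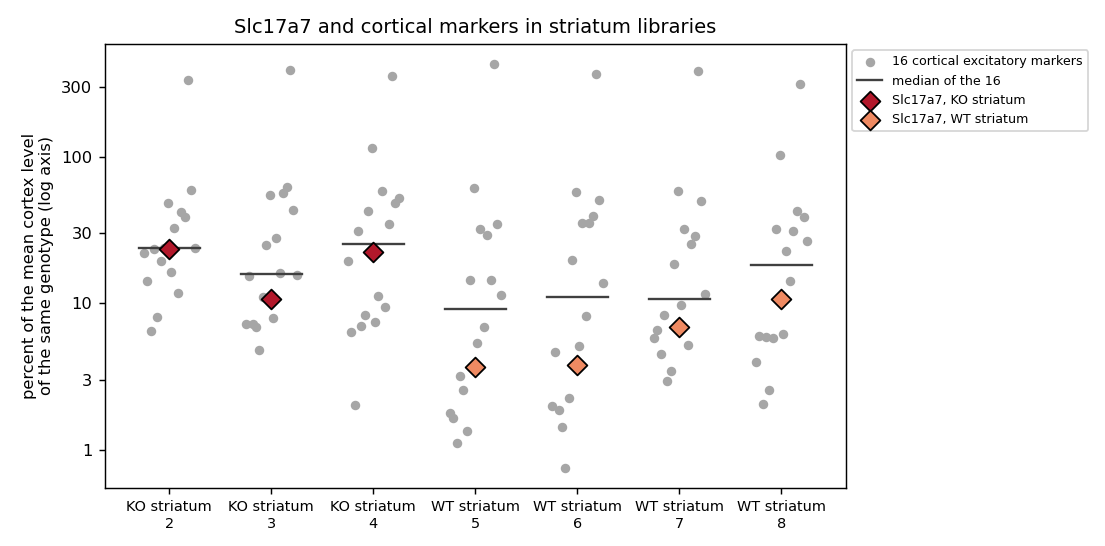
Level of Slc17a7 and of the cortical excitatory markers in each striatum library, as percent of the mean of cortex of the same genotype (log axis). Slc17a7 lies at 10.8 to 23.6% in KO and 3.70 to 10.8% in WT libraries, and the median marker at 15.9 to 25.4% in KO and 9.15 to 18.4% in WT.

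Markers of thalamic neurons were, like Slc17a6, higher in striatum than in cortex. Of 14 tested, limma called 11 higher and 0 lower in striatum in KO samples (median log2 fold change 2.95) and 14 higher in WT samples (median 2.84). Tcf7l2, a transcription factor of thalamic and habenular neurons, had 518, 872 and 4806 normalized counts in KO striatum, 968, 1279, 916 and 2796 in WT striatum, 108 to 119 in KO cortex and 89.4 to 113 in WT cortex. Prkcd, a protein kinase C gene strongly expressed in thalamus, had 1360, 849 and 16198 in KO striatum and 4061, 3145, 3249 and 10285 in WT striatum. KO replicate 4 and WT replicate 8 were the highest of their groups for both, as they were for Slc17a6. Among the other 5 libraries Prkcd did not follow Slc17a6: WT replicate 5 had the lowest Slc17a6 of all 7 but more Prkcd than WT replicates 6 and 7, and KO replicate 3 had more Slc17a6 but less Prkcd than KO replicate 2. Between KO and WT striatum the median of the 14 was -0.18. Limma, edgeR and DESeq2 called 0 of them, and 1 had an unadjusted p below 0.05, beside 2598 of the 17030 tested genes. Limma without KO replicate 4 and WT replicate 8 called 6, all lower in KO (median -0.80). That fit called 5.11% of all tested genes, and Slc17a6 had 0.10 in it. These 2 libraries had been set apart by their thalamic level, so the 6 calls are not independent of that choice.

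Markers of hypothalamic neurons were higher in striatum as well: 12 of 13 tested were called in KO samples (median log2 fold change 5.38) and 12 of 13 in WT samples (median 4.17), all of them higher. Between KO and WT striatum 11 of the 13 lay above 0, with a median of 0.88. Limma, edgeR and DESeq2 called 0 of them, and 2 had an unadjusted p below 0.05, beside 2598 of the 17030 tested genes. Limma without KO replicate 4 and WT replicate 8 called 2, both higher in KO (median 1.74), in a fit that called 5.11% of all tested genes. Another 4 of the 17 listed did not pass the filter on low values. Pmch, the precursor of melanin-concentrating hormone, had 1470, 150 and 4090 normalized counts in KO striatum and 35.3, 993, 825 and 7575 in WT striatum, against at most 25.1 in any cortex library. Hcrt, the orexin precursor, had 178, 12.5 and 643 in KO striatum and 20.5, 141, 96.5 and 1152 in WT striatum. Sim1, a transcription factor of the hypothalamus, had 158, 152 and 31.8 in KO striatum and 3.41, 71.1, 7.85 and 67.8 in WT striatum. Pmch and Hcrt were highest in the libraries highest in Slc17a6, and Sim1 was not. The part of thalamic and hypothalamic transcripts in the level of Slc17a6 was not tested.

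The habenula, which lies beside the thalamus, also holds neurons that use Slc17a6. Of 6 habenular markers tested, limma called 4 higher and 2 lower in striatum in KO samples, and 2 higher and 2 lower in WT samples. The shares of all tested genes were 18.4% higher and 19.5% lower in KO samples, and 24.9% and 25.7% in WT samples. Pou4f1, a transcription factor of medial habenular neurons, had 1.09, 4.17 and 156 normalized counts in KO striatum and 2.27, 0.0, 2.24 and 3.18 in WT striatum, so KO replicate 4 alone stood out. Nwd2 had 507 to 1182 in KO striatum against 111 to 236 in WT striatum (log2 fold change 1.92, SE 0.28, limma adjusted p = 0.02), and was the only marker of the 6 that limma called there, while DESeq2 also called Gpr151. The call of Nwd2 was lost with limma fitted to the striatum libraries alone (1.92, adjusted p = 0.68) and with limma voom (1.92, adjusted p = 0.066). Nwd2 was higher still in cortex, at 1338 to 1844 in KO and 1130 to 1660 in WT. Of 10 choroid plexus markers, limma called 2 higher and 0 lower in striatum in KO samples, where 18.4% of all tested genes were called higher. In WT samples it called 5 higher, where 24.9% of all tested genes were. The 2 libraries rich in choroid plexus markers lay at opposite ends for Slc17a6. WT replicate 5 had the lowest of the striatum libraries, at 1463, and KO replicate 4 the highest, at 7890.

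**Figure D5:**
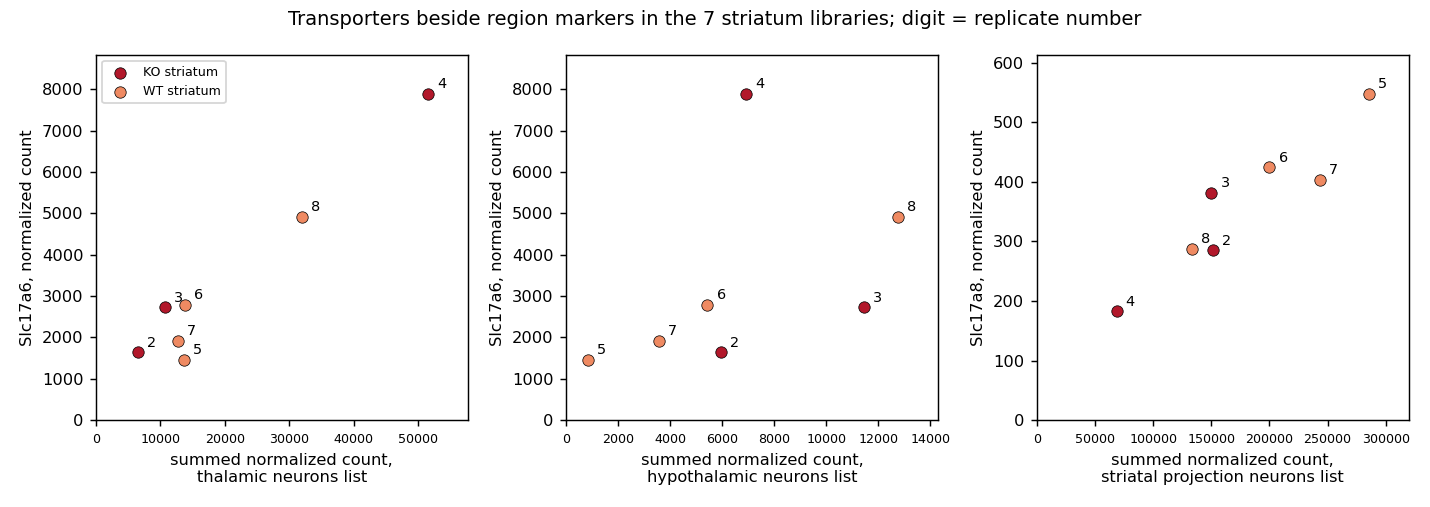
Normalized counts of Slc17a6 (y axis, left and middle panels) and Slc17a8 (right panel) against the summed normalized counts of the thalamic, hypothalamic and striatal projection neuron lists (x axes) in the 3 KO and 4 WT striatum libraries, each point with its replicate number. KO replicate 4 and WT replicate 8 stand highest for the 14 thalamic markers, at 51551 and 32064, and for Slc17a6, at 7890 and 4921.

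For Slc17a8 the markers of its known cell types were described in the same way. All 7 cholinergic markers were called higher in striatum in KO samples (median log2 fold change 5.19) and in WT samples (median 4.93). Chat, which makes acetylcholine, had 436, 431 and 252 normalized counts in KO striatum and 712, 677, 726 and 536 in WT striatum, against 5.60 to 16.8 in KO cortex and 16.5 to 69.2 in WT cortex. Slc5a7, the choline transporter gene, averaged 1247 ± 403 in KO striatum, 1781 ± 263 in WT striatum, 37.4 ± 15.3 in KO cortex and 63.7 ± 33.2 in WT cortex. As with Slc17a8, the lowest striatum library for Chat and Slc5a7 in KO was replicate 4 and in WT replicate 8.

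Of 7 markers of interneurons that make cholecystokinin or vasoactive intestinal peptide, limma called 2 higher and 3 lower in striatum in KO samples and 3 higher and 3 lower in WT samples. The shares of all tested genes were 18.4% higher and 19.5% lower in KO samples, and 24.9% and 25.7% in WT samples. Cck itself, which cortical excitatory neurons also express, averaged 1272 ± 726 in KO striatum, 763 ± 446 in WT striatum, 5145 ± 220 in KO cortex and 5838 ± 612 in WT cortex. Of 3 serotonin markers, Slc6a4 and Fev lay at or below 5.08 and 2.19 in every library and did not pass the filter. Tph2, the enzyme of serotonin synthesis in neurons, had 10.6 to 17.7 in KO striatum and 9.14 to 30.7 in WT striatum, against 24.3 to 43.0 in KO cortex and 28.3 to 32.0 in WT cortex, and limma called it lower in striatum in both genotypes (log2 fold change -1.17 in KO samples, adjusted p = 0.012, and -0.84 in WT samples, adjusted p = 0.033). The call in WT samples was lost in 10 of 27 alternatives, among them edgeR (-0.75, adjusted p = 0.057), no filter on low values (-0.84, adjusted p = 0.055), the fit without KO striatum replicate 4 and WT striatum replicate 8 (-0.73, adjusted p = 0.074) and 6 that left out 1 WT library each (any of the 4 of cortex, or striatum replicate 6 or 8, with adjusted p 0.052 to 0.11). The call in KO samples was lost without KO striatum replicate 4 (-1.01).

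The 14 markers of striatal projection neurons, GABAergic cells that make up most of the striatum, all lay below 0 between KO and WT striatum (median log2 fold change -0.83). Limma, edgeR and DESeq2 called 0 of them, and 8 had an unadjusted p below 0.05, beside 2598 of the 17030 tested genes. Limma without KO replicate 4 and WT replicate 8 called 2, in a fit that called 5.11% of all tested genes. Drd1 had 4150, 4314 and 1714 normalized counts in KO striatum and 7618, 5311, 6458 and 3218 in WT striatum. Per 1000 summed counts of these markers, Slc17a8 had 1.88, 2.54 and 2.67 in KO striatum and 1.92, 2.12, 1.66 and 2.16 in WT striatum. On that scale the groups overlapped, with 2 KO libraries above all WT libraries. The part of the cell makeup in the KO and WT values of Slc17a8 was not tested.

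Other carriers of the SLC17 family showed smaller differences. Slc17a5, the lysosomal sialic acid carrier sialin, was lower in striatum: 459 ± 31.7 in KO striatum against 567 ± 27.7 in KO cortex (log2 fold change -0.30, SE 0.09, limma adjusted p = 0.012), and 443 ± 52.7 in WT striatum against 596 ± 19.4 in WT cortex (-0.43, SE 0.08, adjusted p = 0.0004). The call in KO samples was lost without KO striatum replicate 2 (-0.26, adjusted p = 0.052). Slc17a9, the vesicular nucleotide carrier, averaged 17.1 ± 2.56 in KO striatum, 10.3 ± 2.90 in WT striatum, 11.1 ± 3.71 in KO cortex and 16.4 ± 6.84 in WT cortex, and was not called. Slc17a2 and Slc17a3 stayed at or below 2.09 in every library. Slc17a1 and Slc17a4 were not analysed here.

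Of 10 other vesicular carriers tested, 5 were called higher and 3 lower in striatum in KO samples, and 5 and 4 in WT samples. The shares of all tested genes were 18.4% higher and 19.5% lower in KO samples, and 24.9% and 25.7% in WT samples. Slc32a1, which loads GABA and glycine into vesicles, averaged 5770 ± 1549 in KO striatum, 6719 ± 485 in WT striatum, 1870 ± 45.5 in KO cortex and 2107 ± 136 in WT cortex. Slc18a3, which loads acetylcholine and is also in the cholinergic list, averaged 240 ± 47.7 in KO striatum, 331 ± 72.2 in WT striatum, 5.88 ± 2.52 in KO cortex and 12.9 ± 2.81 in WT cortex. Slc18a2, the monoamine carrier, Slc10a4 and Sv2c were the other genes called higher. Sv2b, a synaptic vesicle glycoprotein gene, averaged 5784 ± 1067 in KO striatum, 4488 ± 481 in WT striatum, 16740 ± 1177 in KO cortex and 15921 ± 718 in WT cortex, and Slc6a17, a carrier of neutral amino acids into vesicles, was also lower in striatum. Limma called Slc18b1 lower in WT samples (-0.25, adjusted p = 0.013) and had -0.21 in KO samples (adjusted p = 0.054). In KO samples DESeq2 called it, as did limma without KO cortex replicate 2 or WT striatum replicate 7. The difference between the genotypes is the same contrast as the difference of KO effects, in which limma called 0 of the 10 carriers. Sv2a was called in neither genotype. Slc18a1 stayed at or below 15.9 in every library and did not pass the filter.

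Slc30a3, the carrier that loads zinc into glutamatergic vesicles, is in the cortical list too. It averaged 298 ± 134 in KO striatum, 78.5 ± 47.2 in WT striatum, 2305 ± 235 in KO cortex and 2436 ± 294 in WT cortex. It was called lower in striatum in KO samples (log2 fold change -3.03, SE 0.36, limma adjusted p = 2e-05) and in WT samples (-5.13, SE 0.34, adjusted p = 2.9e-08). Between KO and WT striatum it had 2.02 (SE 0.36, adjusted p = 0.061), which did not pass the test but did in 8 of 27 alternatives, among them DESeq2 (1.93, adjusted p = 0.00073) and limma without KO replicate 4 (2.29, adjusted p = 0.015) or without WT replicate 8 (2.37, adjusted p = 0.0052). Its lowest KO value, 192, lay above its highest WT value, 142.

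The proton pump that powers these carriers differed less between tissues. Of 20 subunit genes tested, limma called 10 lower and 1 higher in striatum in KO samples (median log2 fold change -0.18) and 11 lower and 1 higher in WT samples (median -0.21). The shares of all tested genes were 19.5% lower and 18.4% higher in KO samples, and 25.7% and 24.9% in WT samples. Atp6v1g2, a neuronal subunit gene, averaged 6226 ± 901 in KO striatum, 6086 ± 600 in WT striatum, 9216 ± 222 in KO cortex and 9649 ± 656 in WT cortex. The higher one was Atp6v1c2, at 54.5 ± 38.5 in KO striatum, 58.5 ± 28 in WT striatum, 13.6 ± 4.73 in KO cortex and 11.7 ± 3.67 in WT cortex.

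Of 12 genes of glutamate supply and uptake, 2 were called higher and 3 lower in striatum in KO samples, and 2 and 2 in WT samples. Over all tested genes 18.4% were called higher and 19.5% lower in KO samples, and 24.9% and 25.7% in WT samples. The counts of this list lay near or below these shares, so they do not set the list apart. Gls2, a glutaminase gene, was lower in striatum (log2 fold change -0.67, SE 0.12, limma adjusted p = 0.00051 in KO samples, and -0.93, SE 0.11, adjusted p = 9.1e-06 in WT samples). Glud1, glutamate dehydrogenase, and Slc38a1, a glutamine carrier, were higher in striatum, by 0.28 and 0.40 on the log2 scale in KO samples and by 0.31 and 0.29 in WT samples. The call of Slc38a1 in KO samples was lost in 5 of 28 alternatives. Among them were limma with sample weights (0.22, adjusted p = 0.083), fitted to the KO libraries alone (0.40, adjusted p = 0.063) and without KO striatum replicate 4 (0.23, adjusted p = 0.086). In WT samples its call was lost in 9 of 28 alternatives, 8 of which left out 1 library: KO cortex replicate 1 or 4, WT cortex replicate 5, 6 or 7, or WT striatum replicate 6, 7 or 8 (0.24 to 0.31). Slc1a2, the main astrocyte glutamate uptake carrier, was called lower in KO samples (-0.43, SE 0.13, adjusted p = 0.02) and had -0.29 in WT samples (adjusted p = 0.062). In WT samples edgeR and DESeq2 called it, as did limma without KO striatum replicate 2 or 4 or WT striatum replicate 7. The difference between the genotypes is the same contrast as the difference of KO effects, in which limma called 0 of the 12 genes. The call of Slc1a2 in KO samples was lost in 6 of 28 alternatives, 3 of which left out 1 library: KO cortex replicate 4 (-0.40), KO striatum replicate 3 (-0.40) or KO striatum replicate 4 (-0.32).

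The genes with the pattern most like each member were ranked by Pearson's r over log2 values, among 13542 genes in all 15 libraries. These libraries fall into a striatum and a cortex cluster, so r mostly reflects that split and is a description. For Slc17a7 they were Neurod2 (r = 0.992), Nptx1 (0.989), Mapk11 (0.988), Slc30a3 (0.987) and Olfm1 (0.985). For Slc17a6 they were Sema6a (0.977), Tunar (0.975), Tmem132c (0.974), Vangl1 (0.972) and Amotl1 (0.971). For Slc17a8 they were Clip4 (0.992), Rarb (0.991), Strn (0.990), S100pbp (0.989) and Pde1b (0.989).

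Over the 7 striatum libraries alone, among 13550 genes, other genes came first. For Slc17a7 these were Lingo1 (r = 0.997), Flcn (0.994), Zbtb39 (0.984), Dusp15 (0.975) and Hid1 (0.973). For Slc17a6 they were Nell1 (0.997), Mob3a (0.992), Kctd7 (0.991), Slc24a3 (0.990) and Chrnb2 (0.989). For Slc17a8 they were Nap1l1 (0.990), Siah1b (0.988), Wnt2 (0.988), Xkrx (0.987) and Fam76a (0.986). The 2 rankings named no gene in common for any member.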

How the data were processed

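RNA from striatum and cortex of KO and WT mice was sequenced as single-end reads, per the labels. The build GRCm38 and the tools DESeq2 1.12.4, HTSeq 0.6.0, TopHat2 2.1.1, cutadapt 1.1 and FastQC 0.11.5 are listed, per the submitters' processing notes, with no role or order. The annotation release and the strand setting of the counting are not given in the sources used here. The deposited table holds a normalized signal per gene and library: read counts scaled by the authors with a single factor for each library. Undoing that factor gave whole reads, within 0.001, for 100% of the values. Genes with at least 10 normalized counts in at least 3 libraries were tested (17030 of 26595). Limma 3.58.1 in R 4.3.3 was fitted to log2(normalized count + 1) of all 15 libraries, with a mean per group and 11 residual degrees of freedom. Fold changes are therefore on the scale of log2 with a pseudocount of 1, which understates changes of low genes. The comparisons were KO against WT in each tissue, the difference of these effects, and striatum against cortex in each genotype. The p-values were adjusted by Benjamini-Hochberg over all genes tested. EdgeR 4.0.16 and DESeq2 1.42.0 were run on the recovered reads as alternatives, beside limma voom, sample weights, other filters, scalings and pseudocounts, a replicate block and libraries left out. The fit was tested on simulated data in which each gene had the same dispersion in every group. That test therefore does not cover a spread that is wider in striatum than in cortex. Levels per kilobase use exon lengths of GENCODE M21, which matched 99% of the genes.

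The members and the 13 gene lists were chosen with earlier results of these data known. Named are the 3 members, all other SLC17 and vesicular carriers that were measured, the first 3 genes of each other list, up to 4 further called genes of a list by smallest p, and the 5 genes most like each member by Pearson's r, with a mean of at least 20 normalized counts and no predicted-gene name. Foxp2 and Atp6v1c2, which moved against the rest of their lists, were named after their values were seen. Some genes allowed by this rule are not reported here.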

Additional observations from a re-analysis of the deposited data

How the results depend on the processing

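The 3 genes kept their direction and their call between striatum and cortex, in both genotypes, under each of the 28 alternatives run, 15 of which left out 1 library. Leaving out 1 library gave log2 fold changes of -2.68 to -2.12 for Slc17a7, 1.31 to 2.43 for Slc17a6 and 1.05 to 1.58 for Slc17a8 in KO samples, and -4.44 to -3.93, 1.32 to 1.90 and 1.67 to 1.98 in WT samples. For KO against WT in striatum, Slc17a7 passed the threshold in 7 of 27 alternatives: at 1.58 by DESeq2, 1.78 with sample weights, 1.78 without KO replicate 4 and WT replicate 8, 1.63 without these and WT replicate 5, and, with only 1 library missing, at 2.0 (KO replicate 3), 1.48 (KO replicate 4) and 1.95 (WT replicate 8). Leaving out 1 library gave 1.43 to 2.0 (adjusted p 0.0088 to 0.18). Slc17a6 turned to -0.13 with sample weights and to -0.13 without KO replicate 4 and WT replicates 5 and 8, and ran from -0.23 (without KO replicate 4) to 0.90 when 1 library was left out. Slc17a8 ran from -0.83 to -0.30 when 1 library was left out. The difference of Slc17a6 between the KO effects of the tissues turned to -0.20 with sample weights, -0.01 without KO replicate 4 and WT replicate 8, -0.23 without these and WT replicate 5, and -0.34 without KO replicate 4, and reached 0.79. In cortex, leaving out 1 library gave -0.08 to 0.05 for Slc17a7, where the positive values were 0.02 (KO replicate 3), 0.02 (KO replicate 4) and 0.05 (WT replicate 6). Slc17a8 had -0.20 to 0.03, where they were 0.03 (WT replicate 5) and 0.01 (WT replicate 8). The cause of these changes was not tested.

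Genes called over the whole table for KO against WT in striatum numbered 13, and 0 from the striatum libraries alone, 3 by voom, 17 by edgeR, 20 with upper-quartile scaling, 22 with no filter, 35 with sample weights, 320 by DESeq2, 187 once WT replicate 8 was left out, 517 once KO replicate 4 was, and 862 once both were. In cortex 1 gene was called, and 3 by DESeq2. For the difference of KO effects 1 was called, with a range of 0 to 34. Replicate numbers are shared between tissues. Libraries of the same number correlated at 0.004 to 0.142 in their deviations from group means, above 0.1 for 2 of 7. The highest correlation with another number was 0.031, and 6 of 7 correlated best with their own. Whether a shared number marks 1 animal is not stated, and the main fit did not pair these libraries. With the replicate block the difference of KO effects was 1.64 for Slc17a7, 0.19 for Slc17a6 and -0.54 for Slc17a8, and no call of a member changed. The lowest value of a member in any library was 85.1 normalized counts, and no test of depth was made.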
